A study of Rattus norvegicus with 4 samples.

Results

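The genes described here are 9 rat genes of the p53 response: Mdm2, Mdm4, Cdkn1a, Ccng1, Sesn1, Gadd45a, Gadd45b, Gadd45g and Bbc3. They were chosen by symbol, through the RefSeq accession that the array files give for each probe. Of the 9, 8 had a probe with such an accession, on 11 of 45598 probes, out of 16581 genes that could be named; Sesn1 had none and is not measured here. All arrays came from NR8383, a macrophage line derived from lung lavage of a normal rat. The cells were grown in flasks for 48 h and carried for 20 passages, and every sample had been exposed for 4 h to NRCWE049, carbon nanotubes bearing amino groups, at 1.2 cm² of material per cm². There were 4 biological replicates in this 1 group, per the series' description. Replicates 3 and 4 were the closest pair (a median absolute difference of 0.0847 log2 units over genes, against 0.149 to 0.206 for the other 5 pairs), and whether they share a culture cannot be told from the files; if they did, n would be 3 where 4 is given. Unexposed cells belong to the series' design but were not analysed here, so no value below shows a response to the nanotubes.

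p53 is a transcription factor that is held at a low level in unstressed cells because MDM2, a ubiquitin ligase, marks it for degradation, with MDM4 as an inhibitory partner. DNA damage and other stresses free p53, which then binds paired decamers in DNA and raises the transcription of genes that stop the cell cycle (Cdkn1a, Gadd45a), limit oxidative and nutrient stress (Sesn1), trigger apoptosis (Bbc3) or restrain p53 itself (Mdm2, Ccng1). Several of these genes are also induced without p53; Gadd45b, for example, is a target of NF-kB and TGF-beta signalling.

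The promoter windows of 8 members were found in the RefSeq table of the GRCr8 assembly, each 300 bases long with 250 before the annotated start and 50 after it. Both strands were searched for the consensus p53 decamer (10 letters), for a full p53 site of 2 decamers up to 13 bases apart, for TATAAA, for GGGCGG and for the CArG box. An exact decamer lay in 4 of the 8 windows (Cdkn1a, Ccng1, Gadd45a and Sesn1), against 7.98% of 33469 promoters of the same length. Within these windows no member held an exact full site, which 0.0598% of promoters did. Sequence outside the windows was not searched. With 1 mismatch allowed, a setting chosen after the sequences were seen, 3 windows held a full site (Cdkn1a, Ccng1 and Gadd45a), against 1% of promoters. The exact decamers of these 3 genes lie inside their full sites, as the search requires, since 1 mismatch in all leaves an exact decamer. The count of full sites is therefore not separate from that of decamers. The members were chosen as genes of the p53 response, so a larger share of p53 motifs than in all promoters is not an independent finding. The 250 bases before the start are shown for 4 genes, because they carry these matches or, in Gadd45g, the TATAAA match of the 1 member that the arrays did not detect. Capitals mark the full sites and the TATAAA match.
Cdkn1a: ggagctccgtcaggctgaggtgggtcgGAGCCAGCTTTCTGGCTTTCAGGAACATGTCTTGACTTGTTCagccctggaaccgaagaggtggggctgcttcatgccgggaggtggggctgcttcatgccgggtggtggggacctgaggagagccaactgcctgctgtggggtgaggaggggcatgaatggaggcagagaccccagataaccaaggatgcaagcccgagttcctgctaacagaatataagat
Ccng1: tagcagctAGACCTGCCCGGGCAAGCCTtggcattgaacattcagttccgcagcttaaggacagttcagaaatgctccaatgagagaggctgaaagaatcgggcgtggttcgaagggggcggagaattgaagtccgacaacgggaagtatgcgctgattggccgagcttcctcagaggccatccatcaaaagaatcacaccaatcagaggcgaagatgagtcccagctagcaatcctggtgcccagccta
Gadd45a: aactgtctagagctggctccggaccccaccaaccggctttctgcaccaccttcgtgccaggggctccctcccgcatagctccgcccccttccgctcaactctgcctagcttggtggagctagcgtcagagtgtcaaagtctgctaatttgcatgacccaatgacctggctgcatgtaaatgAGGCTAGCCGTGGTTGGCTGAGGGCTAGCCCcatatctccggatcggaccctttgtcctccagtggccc
Gadd45g: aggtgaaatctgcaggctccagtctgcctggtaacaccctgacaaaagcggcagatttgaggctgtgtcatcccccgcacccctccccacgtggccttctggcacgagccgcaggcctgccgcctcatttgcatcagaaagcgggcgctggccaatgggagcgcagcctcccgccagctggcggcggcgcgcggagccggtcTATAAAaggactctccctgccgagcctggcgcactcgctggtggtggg

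These stretches lie at chr20:7150682-7150931 on the plus strand (Cdkn1a), and on the minus strand at chr10:25684877-25685126 (Ccng1), chr4:97486800-97487049 (Gadd45a) and chr17:13530352-13530601 (Gadd45g), in GRCr8. In Cdkn1a the exact decamer GAACATGTCT, at -201 to -192 from the start, is part of 2 overlapping full sites. One of them, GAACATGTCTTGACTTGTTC, has no spacer and carries its 1 mismatch in the second decamer. In Ccng1 the full site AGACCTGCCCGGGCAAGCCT also has no spacer, and it begins at -242. In Gadd45a the decamers are separated by 11 bases. GGGCGG occurred on either strand in 6 of the 8 windows, against 33.1% of promoters, TATAAA in 1 (Gadd45g), against 14.2%, and the CArG box in none, against 1.64%. A match describes these letters only; binding was not measured.

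**Figure D1:**
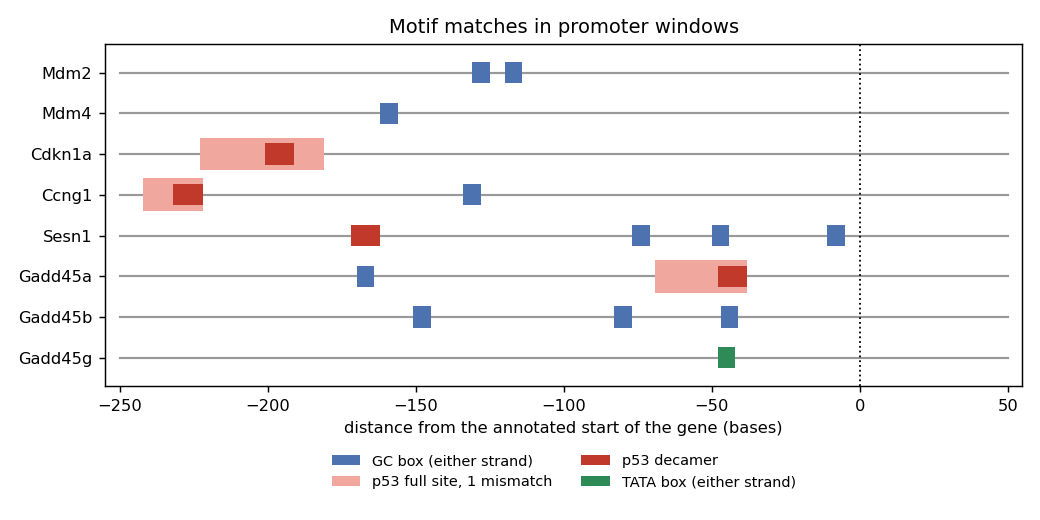
Motif matches in the promoter windows of 8 members, 1 line per gene, along the distance in bases from the annotated start (dotted line). Dark red blocks are exact p53 decamers, pale red blocks full p53 sites with 1 mismatch, blue blocks GC boxes and the green block a TATA box; decamers appear in Cdkn1a, Ccng1, Sesn1 and Gadd45a.

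RNA of the exposed cells carried transcripts of 7 of the 8 measured members on every array. A gene counted as detected where at least 1 of its probes was called well above background by the Agilent software on 4 of 4 arrays. By this rule Mdm2, Mdm4, Cdkn1a, Ccng1, Gadd45a, Gadd45b and Bbc3 were detected, and Gadd45g was not. Of all named genes 52.5% were detected. Of the macrophage markers 8 of 8 were detected, among them Cd68, Csf1r and Spi1. The endothelium markers Pecam1, Vwf and Cdh5 were detected too (3 of 3), as was 1 of 3 T cell markers (Cd3d), while 0 of 5 epithelium, 0 of 3 fibroblast and 0 of 2 measured B cell markers were; their part in the results was not tested. The arrays, 1 slide in 1 scan, detected between 19143 and 19311 probes each, and no spot was saturated; their number limits the precision. Levels below are log2 values of the signal after subtraction of an array-wide scaling value, the 75th percentile of probes detected on all arrays. A level of 0 is thus the signal at that percentile, and levels follow a gene between replicates without ranking genes against each other.

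**Figure D2:**
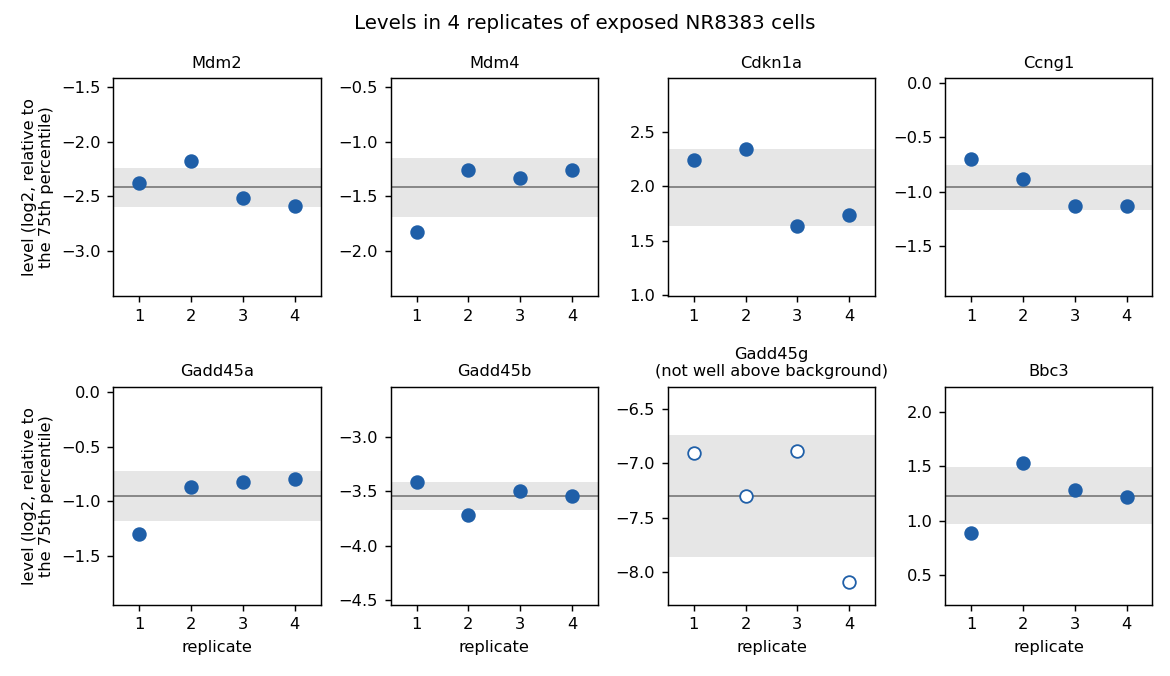
Level of each measured member in replicates 1 to 4 (log2, after scaling each array to its 75th percentile); the line is the mean, the grey band 1 SD on either side, and every panel spans 2 log2 units. Filled points are detected members and open points Gadd45g, which was not detected. Cdkn1a is lower in replicates 3 and 4, and Mdm4 and Gadd45a are lowest in replicate 1.

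Mdm2 and Mdm4, the negative regulators of p53, were both transcribed in the exposed cells. Mdm2 had processed signals of 378.3, 436.8, 434.3 and 399.8 in replicates 1 to 4, and levels of -2.38, -2.18, -2.52 and -2.59 (mean -2.42 ± 0.18, SD, n = 4). Replicate 2 was highest and replicate 4 lowest, 1.33-fold apart. Each array carried 2 spots of the Mdm2 probe, which differed by an SD of 0.059 to 0.12. Mdm4, measured by its brightest probe, had signals of 555.2, 827.7, 991 and 1001 and levels of -1.83, -1.26, -1.33 and -1.26 (mean -1.42 ± 0.27, SD, n = 4). Replicate 1 stood below the other 3 and was 0.54 log2 units under their mean.

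The 3 probes of Mdm4 did not give the same detection. The probe A_43_P14080, whose values are given above, was well above background on 4 arrays. A_44_P1148522 was so on 3 arrays, with signals of 10.5, 26.6, 28.6 and 31.8, and A_43_P17202 on 2, with 17.7, 15.4, 39.2 and 35.9. In these files A_43_P14080 is assigned to a predicted transcript of the gene and both dim probes to its curated one, and the transcripts that each probe binds were not examined. The order of replicates was not read from the dim probes, since their lowest values were at background. The statement that Mdm4 was detected on every array therefore rests on 1 of its 3 probes.

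Cdkn1a encodes p21, the inhibitor of cyclin-dependent kinases through which p53 halts the cell cycle, and with all arrays and the scaling used here it had the largest SD of the detected members. Its main probe had mean signals of 9315, 9995, 7747 and 8021 in replicates 1 to 4, and levels of 2.24, 2.34, 1.64 and 1.74 (mean 1.99 ± 0.35, SD, n = 4). Replicates 1 and 2 were high, replicates 3 and 4 low, and the highest was 1.62-fold above the lowest. Without scaling between arrays the same probe spanned 1.29-fold, less than Mdm4 (1.8), Gadd45a (1.75), Bbc3 (1.66) and Gadd45b (1.47). The arrays differed in overall brightness, with 75th percentiles at signals of 1970, 1980, 2493 and 2402. Without replicate 3 the SD was 0.32 for Cdkn1a and 0.33 for Mdm4, and with normexp Bbc3 spanned 1.69-fold and Cdkn1a 1.6-fold. Its highest and lowest replicates, 2 and 3, were the same under 6 other choices of scaling, background correction, outlier treatment or probes, with folds from 1.59 to 1.7.

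Repeated spots of the Cdkn1a probe measured how much of this spread arose on a single array. The probe was spotted 10 times on each array, with 1 spot of replicate 2 left out as an outlier. Spot levels ran from 2.13 to 2.35 in replicate 1, from 2.28 to 2.4 in replicate 2, from 1.54 to 1.73 in replicate 3 and from 1.6 to 1.89 in replicate 4. At the scaled levels every spot of replicates 1 and 2 was thus above every spot of replicates 3 and 4. Unscaled signals of the spots ran from 8624 to 10020 in replicate 1 and from 7295 to 8886 in replicate 4, and so overlapped. The SD between spots was 0.047 to 0.095, against the SD of 0.35 between replicates. Spots of 1 array share 1 labelled RNA and 1 scaling value, so they measure spotting and scanning error and are not further replicates. The second Cdkn1a probe, A_44_P515275, is dim, with signals of 111, 135, 95.2 and 107. Its levels of -4.15, -3.88, -4.71 and -4.49 also placed replicate 2 highest and replicate 3 lowest, 1.78-fold apart.

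**Figure D3:**
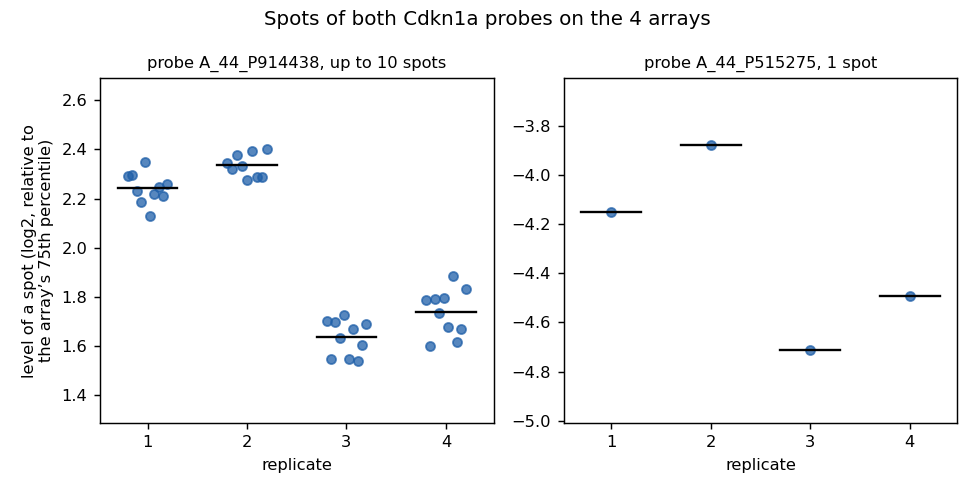
Levels of the single spots of both Cdkn1a probes (log2, after scaling each array to its 75th percentile) in replicates 1 to 4; points are spots in file order and the bar is their mean. Both panels span 1.4 log2 units. At these scaled levels, spots of replicates 1 and 2 do not overlap those of replicates 3 and 4 for the main probe. Unscaled signals of its spots overlap between replicates 1 and 4. The dim probe has the same highest and lowest replicate.

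Ccng1 encodes cyclin G1, a p53 target that recruits a phosphatase to MDM2. Its signals were 1217, 1079, 1141 and 1101, and its levels -0.7, -0.88, -1.13 and -1.13 (mean -0.96 ± 0.21, SD, n = 4). Replicate 1 was highest, 1.35-fold above the lowest. The unscaled signals spanned 1.13-fold, less than the scaled levels, on arrays that differed in overall brightness. Under 6 other settings the levels spanned 1.35-fold to 1.42-fold. Replicates 3 and 4 had the same level to 2 decimals, and 5 of 6 other settings put replicate 4 in place of replicate 3 as the lowest. Sesn1, which encodes a sestrin that restrains growth signalling through mTORC1, had no probe in this naming and is represented here by its promoter alone.

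The GADD45 genes encode 3 related small proteins that bind PCNA, p21 and the CDK1 complex and activate the stress kinase MAP3K4. Gadd45a, the classical p53 target of the family, had signals of 802.6, 1084, 1407 and 1381 and levels of -1.3, -0.87, -0.82 and -0.8 (mean -0.95 ± 0.23, SD, n = 4). Replicate 1 was 0.46 log2 units below the mean of the other 3, a 1.38-fold gap, and it was lowest under 6 of 6 other settings. Gadd45b had signals of 185.7, 150.1, 220.9 and 206.8 and levels of -3.41, -3.72, -3.5 and -3.54 (mean -3.54 ± 0.13, SD, n = 4), with all arrays the smallest SD of the 7 detected members. Without replicate 1 the SDs were 0.03 for Gadd45a and 0.04 for Mdm4, below the 0.12 of Gadd45b. Its highest and lowest replicates, 1 and 2, were 1.24-fold apart, and 2 spots per array differed by an SD of 0.029 to 0.077.

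Gadd45g did not clear the background threshold in any replicate. Its signals were 16.4, 12.6, 21 and 8.81, where the lowest signal flagged well above background on the same arrays was 16.6, 18, 20.1 and 20.1. The signal of replicate 3 lay above that minimum without carrying the flag. Its levels of -6.91, -7.3, -6.89 and -8.09 are given as measured, and differences between them are not read as differences in transcript. Under Agilent's laxer flag for positive and significant signal, Gadd45g was detected as well, with 8 of 8 members and 10229 of 16581 named genes. The gene was measured by 1 spot of 1 probe, so a transcript that this probe does not bind would be missed.

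Bbc3 encodes PUMA, a BH3-only protein that carries the p53 signal to mitochondria in apoptosis. The probe gave signals of 3644, 5725, 6037 and 5615, and levels of 0.89, 1.53, 1.28 and 1.22 (mean 1.23 ± 0.26, SD, n = 4). Replicate 2 was highest and replicate 1 lowest, 1.56-fold apart, and this order of extremes was the same under 6 of 6 other settings. Replicate 1 was 0.46 log2 units below the mean of the others. Gadd45a, Mdm4 and Bbc3 were thus lowest in replicate 1, in which the other detected members, Mdm2, Cdkn1a, Ccng1 and Gadd45b, were above their means.

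Whether any member varied more between replicates than genes of like brightness was tested with limma, from the residual variance of each of 8713 detected genes against the variance expected at its level. Of the 7 detected members 0 passed at an adjusted p of 0.05, where 0.0115% of all genes did (1 gene). At an unadjusted p under 0.05 there were 2 members of 7, Cdkn1a and Bbc3, against 4.3% of all genes. Cdkn1a had an SD of 0.35 where 0.11 was expected (F = 9.61, adjusted p = 0.969 by limma). Bbc3 had an SD of 0.26 where 0.12 was expected (F = 5.26, adjusted p = 0.969 by limma). Adjusted p-values of the other 5 ran from 0.969 to 0.993 (limma). Gadd45b was below the expected SD, at 0.13 against 0.2, and Mdm2 was near it, at 0.18 against 0.17. The test rests on 4 arrays, and a member that did not pass may still differ between replicates. Even the gene Cfap298, with an SD of 1.358 where 0.158 was expected, did not pass (adjusted p = 0.233 by limma). A count of 0 members was therefore likely in advance and does not show that the members were steady.

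**Figure D4:**
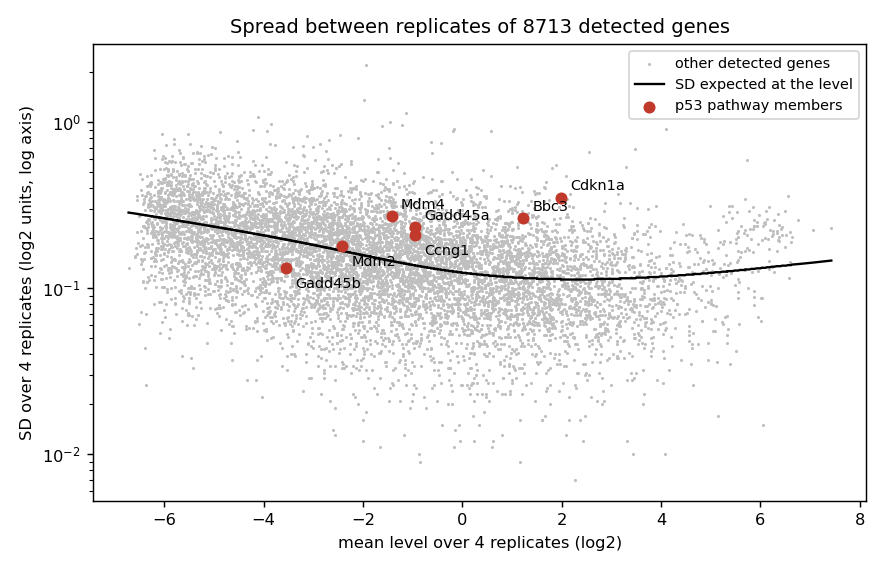
SD over 4 replicates (log2 units, log axis) against the mean level of 8713 detected genes; grey points are genes, the line is the SD expected at each level, and red points are the 7 detected members. Of the 7 members, 6 lie above the line, Mdm2 only just, and Gadd45b lies below it. Of all 8713 genes, 4041 lie above the line. Among the members the gap is widest for Cdkn1a.

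Members did not share 1 order of the replicates. Replicate 2 was highest for 4 of the 7 detected members (Mdm2, Mdm4, Cdkn1a and Bbc3), against 24.8% of all detected genes; for Mdm4, replicates 2 and 4 had the same level to 2 decimals. Replicate 1 was lowest for 3 (Mdm4, Gadd45a and Bbc3), against 28.5% of all detected genes. The median deviation of the members from their own means was 0.04, 0.16, 0.04 and -0.01 in replicates 1 to 4, and that of all detected genes 0.02, -0.01, -0.01 and 0.01. At the scaled levels Mdm2, Cdkn1a and Ccng1 were above their means in replicates 1 and 2 and below them in replicates 3 and 4. Their unscaled signals spanned 1.15-fold, 1.29-fold and 1.13-fold. The share of all detected genes with this pattern was not counted. Gadd45a, Mdm4 and Bbc3 were below their means in replicate 1 and above them in replicate 2. For this pattern too, the share of all detected genes was not counted. Correlations across samples were not computed, because 4 arrays are too few.

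The surroundings of each member on the slide were read from detected spots at most 5 rows and 5 columns away. Spots of the same gene were left out, and spots without a gene name were kept. Around the Mdm4 spot, 53 such neighbours had a median deviation of 0.06 in replicate 1, where Mdm4 itself was 0.56 below the median of the other arrays. Around Gadd45a, 55 neighbours had a median of 0.03 in replicate 1, where the gene was at -0.47. Around Bbc3, 53 neighbours had a median of 0.01 in replicate 1, with the gene at -0.39. The low values of these 3 spots in replicate 1 were not shared by the spots around them. Each of the 3 probes is present once per array, so no second spot repeats the value.

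Beyond the members, 55 genes lay in 4 lists of the same pathway, and 51 of them were measured and 42 detected, where 52.5% of all named genes were. All 10 measured p53 regulators were detected, among them the phosphatase gene Ppm1d (-2.88 ± 0.17, SD, n = 4) and the ubiquitin ligase gene Rchy1 (-4.94 ± 0.21). Of 15 other p53 targets linked to growth arrest or stress adaptation 9 were detected, a share near that of all named genes. Btg2, an antiproliferative gene, and Plk2, a polo-like kinase gene, were detected in no replicate, and the same held for Rprm and Rrm2b, while Zmat3 was detected on 1 array; these last 3 were named after their values were seen. Of 11 targets linked to cell death 9 were detected, including Bax (3.01 ± 0.17) and the death receptor gene Fas (-5.07 ± 0.19), and the BH3-only gene Pmaip1 and the desmosome gene Perp were not. Of 15 partners of p21 and the GADD45 proteins 14 were detected, including Cdk1 (2.9 ± 0.19), Cdk2 (-0.36 ± 0.12) and Pcna (1.7 ± 0.07), and Cdk6 was not.

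Among the 42 detected list genes 0 passed the same test at an adjusted p of 0.05 (limma), which with 4 arrays calls few genes. An unadjusted p under 0.05 was reached by 3, again against 4.3% of all genes. These 3 were named after their values were seen. Gdf15, a stress-induced cytokine gene, was at -0.73 in replicate 1 and at 0.75, 1.16 and 1.13 in replicates 2 to 4 (adjusted p = 0.233 by limma). Phlda3, an inhibitor of AKT and a p53 target, was at -3.29, -3.57, -4.42 and -4.55 (adjusted p = 0.969 by limma). It was high in replicates 1 and 2 and low in 3 and 4, as Cdkn1a was. Of the 42 list genes, 7 were above their means in replicates 1 and 2 and below them in 3 and 4, and 7 had the opposite pattern. Hipk2, a kinase that phosphorylates p53, was at 1.69 in replicate 1 and 2.27, 2.13 and 2.25 in the others (adjusted p = 0.969 by limma). For detected genes the median SD was 0.2 among the regulators, 0.23 among the growth arrest targets, 0.2 among the death targets and 0.18 among the partners, and 0.151 over all detected genes. The medians of the SDs expected at these genes' levels were 0.16, 0.14, 0.17 and 0.12 in the 4 lists and 0.151 over all detected genes, and no list gene passed the test.

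**Figure D5:**
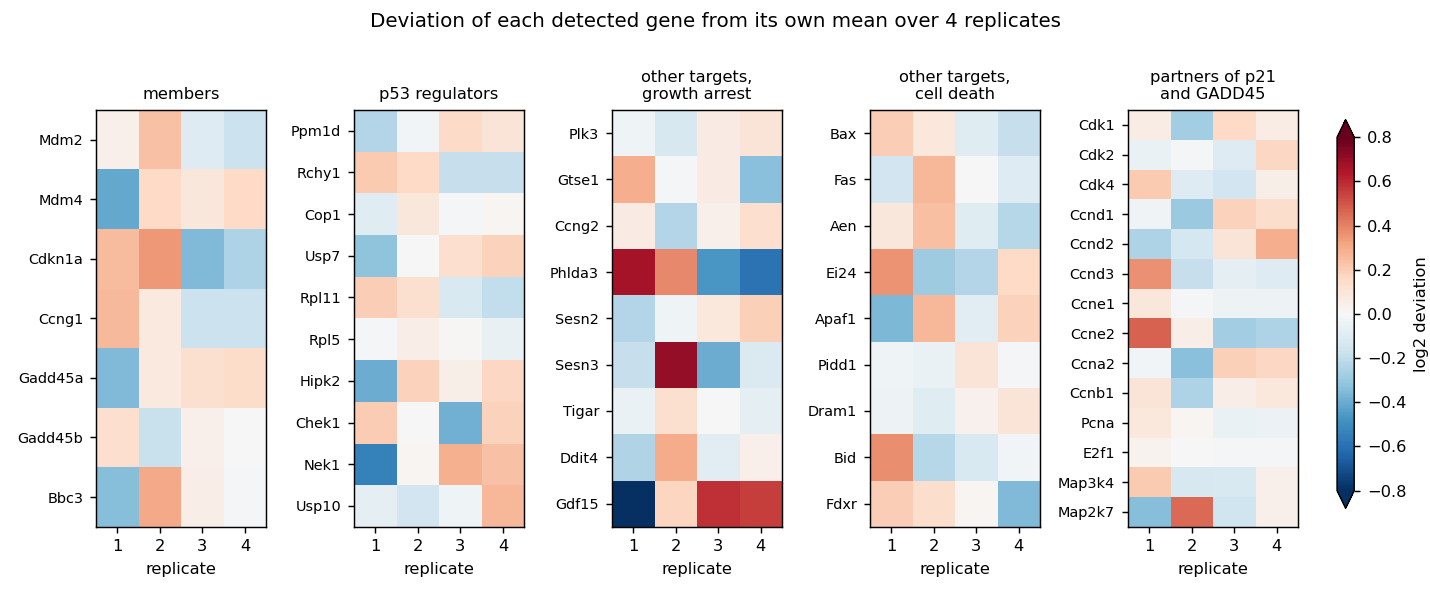
Log2 deviation of each detected gene from its own mean over 4 replicates, for the 7 detected members and the 4 lists; red is above the mean, blue below, and colours saturate at 0.8. Among the 42 list genes, 7 are above their means in replicates 1 and 2 and below them in replicates 3 and 4. The same holds for 3 of the 7 members, and another 7 list genes have the opposite pattern. How many of all detected genes have either pattern was not counted.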

How the data were processed

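Each deposited file holds 1 array of total RNA labelled with Cy3, from 100 ng, with RNA integrity above 7.5 per the labels' protocols. The deposited intensity of a spot is the processed signal of Agilent Feature Extraction 11.0.1.1, corrected for background and for trends across the array per the file headers and the submitters' processing notes. No scaling between arrays is stated in the sources.

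Spots that the software marked as outliers (nonuniform or population) and control spots were omitted, and spots of a probe were averaged as log2 values. From each array the 75th percentile over the probes detected on all arrays (39.3%) was subtracted. Probes were named by unversioned accession through the RefSeq genes of GRCr8; the build in the headers is another, so no coordinates of probes are given. A gene took its brightest probe, detected ones first. Each gene had an intercept-only model in limma 3.58.1 (R 4.3.3). Its residual variance was set against the intensity trend by an F test with Benjamini-Hochberg adjustment over 8713 genes. The procedure was also run on simulated data with the spread of some genes raised. The pass condition asked for few calls of unraised genes, and for calls only where the raise was far beyond any member's. That condition alone therefore does not show whether a spread like that of Cdkn1a would be called. Raises near that spread were simulated too, and their calls are not given here. Other software was the data.table package (version 1.17.8), Python 3.11.15 and matplotlib 3.10.9.

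The members and lists were chosen with earlier results of these data known. Named genes are the members, the first 2 of each list, and list members whose detection goes against their list where these are 5 or fewer. The p53 transcript itself is not reported here. The planned alignment of member proteins was not run. Alternatives covered flags, scaling, background correction, probes, filters and single replicates.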

Additional observations from a re-analysis of the deposited data

Results flagged for a closer look

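Among 62 sets of 4 values from members and list genes, 5 held a replicate whose gap to its nearest neighbour, divided by the whole range, exceeded Dixon's 95% critical value. Chance alone gives about 3.1 such sets, or 1 in 20. The sets include dim probes and several probes of 1 gene, so they are not independent and the 2 counts are only a rough guide. Mdm4 was low in replicate 1 (ratio 0.872), at -1.83 against -1.26, -1.33 and -1.26. Its dim probe A_44_P1148522 was also low there (ratio 0.83), at -7.55 against -6.22, -6.44 and -6.24, but it was well above background on 3 arrays only, so that its low value has no order. Gadd45a was low in replicate 1 (ratio 0.858), at -1.3 against -0.87, -0.82 and -0.8. Pmaip1, not detected on any array, had its high value in replicate 1 (ratio 0.902), with -7.3 against -8.96, -9.14 and -9.13. Ccnb1, the cyclin gene of mitotic entry, was low in replicate 2 (ratio 0.859), at 0.23 against 0.58, 0.53 and 0.56. The cause of these values was not tested.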

How the results depend on the processing

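Detection of the members was 6 to 8 of 8 under 9 alternatives: 8 under the laxer flag, 6 where every probe of a gene had to be detected (Mdm4 then fails), and 7 otherwise. The count of members that passed the test of spread was 0 under 13 alternatives, and 0 to 2 had an unadjusted p under 0.05. The lowest adjusted p was 0.63 (limma), for Cdkn1a without replicate 4. With so few arrays a count of 0 was likely in any setting. The count over all genes was 1 as reported and 0 to 9 elsewhere by limma: 9 with the percentile over all probes, with replicates 3 and 4 averaged, without replicate 3 and without replicate 4, 4 with outlier flags ignored, and 0 in the other settings that differed, among them without replicate 1 and without replicate 2. Levels moved by more than 1 SD with normexp for Mdm2 (-2.23), Gadd45b (-3.14) and Gadd45g (-4.73), a setting that changes the background method, the offset (50) and the signal column together; the cause was not tested. The deviation of replicate 4 of Gadd45g was then -0.16. With the mean over both probes the level of Cdkn1a was -1.16, since 1 probe is dim. The deviation of each member's farthest replicate kept its sign under every alternative run. No paired analysis was possible because the arrays form 1 group. Averaging replicates 3 and 4 and allowing a mismatch in the promoter site were chosen after seeing the data. The mean spot signal was replaced by the median signal in normexp. Signal over background limits Gadd45g and both dim Mdm4 probes.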

Other observations

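Replicates 3 and 4 were the closest pair of arrays. Over 8713 detected genes their median absolute difference was 0.0847 log2 units, against 0.149 to 0.206 for the other 5 pairs. For 1746 detected probes with at least 2 spots, spots at different positions of replicates 3 and 4 differed by a median of 0.0999, against 0.0579 to 0.0904 for 2 spots on 1 array. The difference between replicates 3 and 4 in the first spot of a probe correlated with that in its second spot at a Spearman's rho of 0.575, the lowest of the 6 pairs, where the other 5 gave 0.729 to 0.885 (across probes, which are not independent replicates). Spots of 1 array share 1 labelled RNA, so these values do not show whether replicates 3 and 4 came from separate cultures. They were kept as the labels give them, as separate replicates.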
